A study of Mus musculus with 24 samples.

Results

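The genes described here, 10 of the 55414 in the count table, belong to families and complexes that set the methylation of histone H3. They were followed in mouse splenic conventional T cells (Tconv CD4+ cells). They were the KMT2 family (Kmt2a, Kmt2b, Kmt2c, Kmt2d and Kmt2e), the core of Polycomb repressive complex 2 (PRC2; Ezh1, Ezh2, Suz12 and Eed) and the demethylase Kdm6b, selected by symbol. All 10 passed the filter on low counts, as did 10566 genes in all. The genes were selected with earlier results of these same counts known, so their levels and fold changes in every contrast among the 4 groups are given as a description. Where the fit called one of them, the call is part of that description and is not offered as a test.

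The mice were conplastic: they shared the C57BL/6J nuclear genome and differed in their mitochondrial DNA, which came from C57BL/6J (mtDNA B6, WT in the labels) or from NZB (mtDNA NZB). Most animals were males aged 2 to 3 months. Tconv CD4+ cells, labelled TE and taken as CD4+ CD25- spleen cells, were resting (RES) or had been activated (ACT). Activation lasted 72 h and used beads carrying antibodies to CD3 and CD28, plus IL-2. Each of the 4 groups held 6 libraries, 24 in all, and the labels do not say whether these came from separate animals, so that the p-values measure only the spread between these libraries.

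The KMT2 enzymes, apart from Kmt2e, place methyl groups on lysine 4 of histone H3 (H3K4), a mark of active promoters and enhancers. PRC2 places them on lysine 27 (H3K27), a mark of silenced genes, and Kdm6b removes them again. In CD4+ T cells these marks are known for holding lineage genes such as Tbx21 and Eomes silent or ready for use as cells leave quiescence and divide. Ezh2 is known as the PRC2 enzyme of dividing cells, and Ezh1 as the alternative enzyme in resting cells.

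Promoter windows were looked at first, because Ezh2 and Ezh1 encode alternative enzymes of the same complex and stood at different levels after activation. RefSeq windows (GRCm38.p6), reaching from 250 bases before to 50 bases after an annotated start, were matched for 7 of the 10 genes and not for Kmt2b, Kmt2e and Kdm6b. The letters of the E2F-type motif (TTTCCCGC, TTTCGCGC, TTTGCCGC or TTTGGCGC, on either strand) stood in the windows of Ezh2 and Suz12 and in none of the other 5. Of all 32851 windows, 2.26% held them. CCAAT, on either strand, stood in the windows of Ezh2, Suz12 and Eed, and in 37.4% of all windows. Neither motif overlapped the other in these windows, and the motifs were chosen after the levels had been seen. Capitals below mark the matched letters. The first line is from Ezh2 (chr6:47595019-47595045, minus strand), where the E2F-type letters begin at base 4, counting the start as base 1, and CCAAT reads in reverse 11 bases before the start. This start lies 240 bases inside the gene's RefSeq span, and 2 further CCAAT matches, 90 and 64 bases before it, are not printed. The Kmt2d window lies around a start 2872 bases inside its gene, so the outer promoter of Kmt2d was not searched. The lines for Suz12 are chr11:79992881-79993030 and chr11:79993031-79993060 (plus strand), with the E2F-type letters 219 bases and CCAAT 61 bases before the start. Eed (chr7:89980947-89980976, minus strand) is shown for its single CCAAT, which begins at base 26. Ezh1 (chr11:101226464-101226563, minus strand) is shown beside Ezh2 for the 100 bases before its start, which hold neither motif. A match describes the letters alone.
Ezh2: ggcgATTGGgttgctgcgTTTGGCGCt
Suz12, upstream: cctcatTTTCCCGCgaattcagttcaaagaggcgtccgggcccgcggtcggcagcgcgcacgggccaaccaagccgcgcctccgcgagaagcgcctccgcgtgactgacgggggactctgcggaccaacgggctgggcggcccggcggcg
Suz12, nearer the start: cgcgctcccgccggCCAATcagagcgccgg
Eed: gcgggtcggagatcgaaggattgagCCAAT
Ezh1: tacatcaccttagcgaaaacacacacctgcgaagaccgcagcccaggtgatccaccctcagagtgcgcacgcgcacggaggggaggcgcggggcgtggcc

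Counts were of unique molecular identifiers (UMIs), each standing for 1 captured 3′ end of an RNA, and library totals ran from 51409 to 6449395 UMIs. The smallest library, mtDNA NZB resting replicate 2, held between 0 and 8 UMIs of each of the 10 genes, against 8 to 1254 in the other 23 libraries. Kmt2c and Ezh1 had 0 UMIs in it, which at this depth allows a level of up to 58.4 CPM (UMIs of a gene scaled to a common library total; the count of 0 allows 3 UMIs). A second fit, of 21 libraries and 10826 genes, left out mtDNA NZB resting replicates 2 and 6 and mtDNA NZB activated replicate 6, without which the mean counts listed with the study could be rebuilt. Resting mtDNA NZB replicate 5 stayed in both fits, although its counts stood apart from replicates 1, 3 and 4 (chi-square per degree of freedom 23.4 to 27.5, against 5.12 to 7.63 among those libraries). Il2ra, the IL-2 receptor chain that activated T cells make, lay between 42.0 and 179.7 CPM (from here on after scaling by the trimmed mean of M values) in the 12 activated libraries and between 0 and 5.71 CPM in the 12 resting ones. All 7 T cell markers were detected, and they summed to 3176 to 6332 CPM over all libraries. RNA of several other cell types moved with the state. The 5 granulocyte precursor markers summed to 254 to 8621 CPM in resting and 4.94 to 74.4 CPM in activated libraries, the 4 myeloid markers to 430 to 2802 and 5.55 to 95.8 CPM, the 5 erythroid markers to 71.8 to 5165 and 0 to 117 CPM, and both CD8 T cell markers to 16.7 to 141 and 81.5 to 531 CPM. Both platelet markers summed to 0.988 to 36.1 CPM in resting and 13.9 to 433 CPM in activated libraries, and both NK cell markers to 5.58 to 33.4 and 0 to 3.38 CPM. The 3 Treg markers summed to 16.7 to 34.2 and 54.7 to 225 CPM, but they include Il2ra. Of the other Treg markers, Foxp3 stood at 0.007 ± 0.26 (SE, log2, activated over resting) with mtDNA B6 and at 0.67 ± 0.28 with mtDNA NZB. Ikzf2 stood at -0.88 ± 0.23 and -0.55 ± 0.26. The 5 B cell markers summed to 219 to 1212 and 83.2 to 1054 CPM, and these ranges overlapped, as did those of the CD8 T cell and platelet markers. The part of these other cells in the differences between resting and activated cells below was not tested. In bulk RNA, fewer cells of a type and less RNA per cell cannot be told apart.

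**Figure D1:**
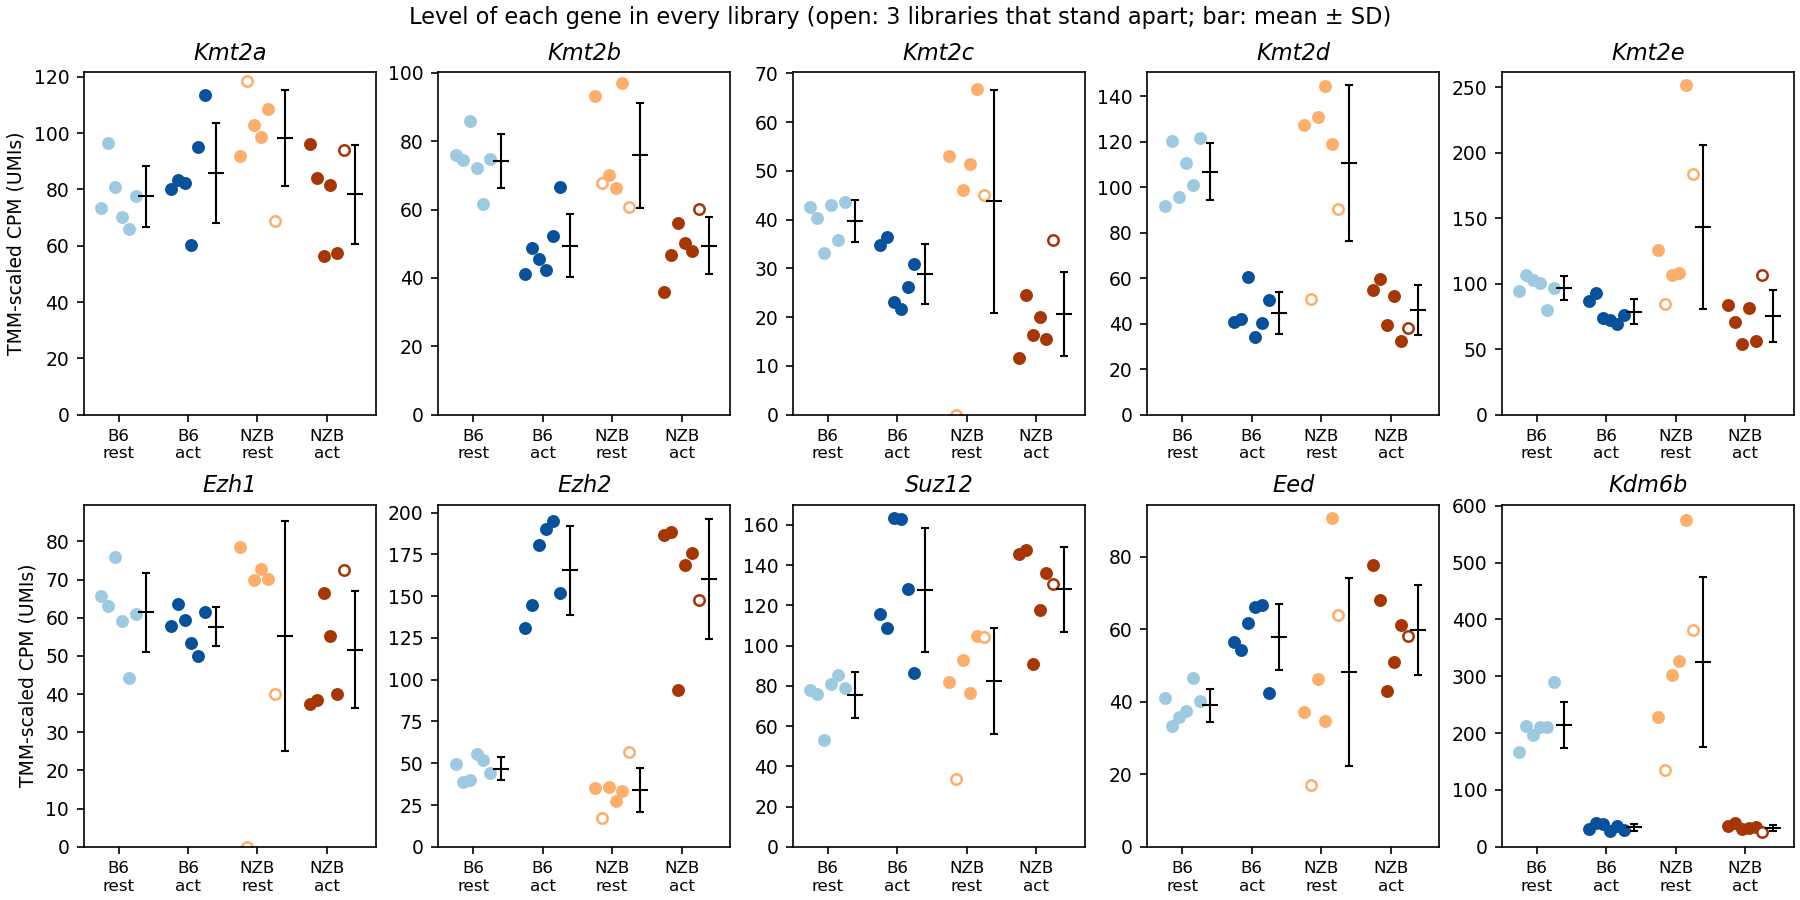
Level of the 10 genes in each library in CPM (vertical axes start at 0), by group, with the mean and SD to the right of the points; open points are the 3 libraries left out of the second fit. Ezh2 and Kdm6b show no overlap between resting and activated libraries in either haplotype, and Kmt2a and Ezh1 overlap in both when all 24 libraries are kept.

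Activation was described first in mtDNA B6 cells. There 6 of the 10 genes were called (adjusted p no higher than 0.05), 3 higher (Ezh2, Suz12 and Eed) and 3 lower (Kmt2b, Kmt2d and Kdm6b), beside 22.4% higher and 24.5% lower over all genes tested. With mtDNA NZB 7 were called, with Ezh2 and Suz12 higher and Kmt2b, Kmt2c, Kmt2d, Kmt2e and Kdm6b lower, where 25.2% of all genes were called higher and 28.4% lower. Resting and activated ranges did not overlap for 4 of the 10 genes in mtDNA B6 cells and for 3 in mtDNA NZB cells, and for 31.8% and 18.9% of all genes. In the 21 libraries they did not overlap for 7 of the 10 with mtDNA NZB, and for 36.3% of all genes. Nothing is read from these counts, since the 10 genes were chosen with them known. With 21 libraries the counts were 7 and 9, Kmt2c joining the lower genes in mtDNA B6 cells and Kmt2a and Ezh1 in mtDNA NZB cells, beside 23.8% higher and 26.6% lower of all genes in mtDNA B6 cells and 24.5% and 28.7% in mtDNA NZB cells. Library sets, made by reads per UMI, nearly followed the state in mtDNA B6 cells. There 5 activated libraries were of set 1 and 1 of set 2, while 4 resting ones were of set 2 and 2 of set 3. With the set as a term 3533 genes were called in mtDNA B6 cells in place of 4958, and state and set can hardly be told apart there.

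Kmt2d, which with Kmt2c methylates H3K4 at enhancers, had the largest shift of the KMT2 family in mtDNA B6 cells. Its level in mtDNA B6 cells had a lowest, median and highest value of 91.8, 106 and 121 CPM at rest and of 34.1, 41.5 and 60.5 CPM after activation, with no overlap. The mtDNA NZB values were 50.8, 123 and 145 CPM at rest and 32.5, 45.8 and 59.7 CPM after activation, and the groups overlapped only through the smallest library. Activated over resting cells, the log2 fold change came to -1.26 ± 0.16 (SE) with mtDNA B6, 2.40-fold lower, and to -1.40 ± 0.17 in mtDNA NZB cells, 2.63-fold lower. With 21 libraries it was -1.26 and -1.47.

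Kmt2b, the paralog of Kmt2a that acts at many promoters, was lower after activation by a smaller step. At rest its lowest, median and highest levels were 61.7, 74.7 and 86.0 CPM in mtDNA B6 cells and 60.6, 69.0 and 97.2 CPM in mtDNA NZB cells. After activation they were 41.2, 47.1 and 66.6 CPM and 35.9, 49.1 and 60.2 CPM. With mtDNA NZB the highest activated library lay just below the lowest resting one, and in mtDNA B6 cells activated replicate 6 reached into the resting range. The log2 fold changes were -0.59 ± 0.14 and -0.61 ± 0.14.

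Kmt2c, the paralog of Kmt2d, had the lowest levels of the family, and its fold changes lay furthest apart between the haplotypes. Its mtDNA B6 level was 33.1, 41.5 and 43.6 CPM (lowest, median, highest) at rest and 21.6, 28.5 and 36.4 CPM after activation, and the ranges overlapped by their ends. With mtDNA NZB it was 0, 48.7 and 66.9 CPM at rest and 11.5, 18.2 and 35.8 CPM after activation, where the 0 is the smallest library and the 35.8 is replicate 6. Without the 3 libraries the mtDNA NZB ranges were 46.0 to 66.9 CPM (n = 4) and 11.5 to 24.5 CPM (n = 5), with no overlap. The fold change was -0.46 ± 0.20 on the log2 scale with mtDNA B6 and -1.23 ± 0.22 in mtDNA NZB cells, and -0.46 ± 0.15 and -1.57 ± 0.18 with 21 libraries.

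Kmt2e, a member of the family by its sequence that is not known to methylate histones, was spread widely in resting mtDNA NZB cells. Its lowest, median and highest levels there were 84.7, 117 and 252 CPM, against 80.1, 98.3 and 107 CPM in resting mtDNA B6 cells. After activation they were 54.0, 76.1 and 106 CPM and 69.1, 75.1 and 93.0 CPM, and the activated ranges overlapped the resting ones, with mtDNA NZB through the smallest library alone. Replicates 5 and 6 of the resting mtDNA NZB group stood at 252 and 184 CPM, above all other 22 libraries. On the log2 scale the fold change was -0.30 ± 0.19 with mtDNA B6 and -1.004 ± 0.19 with mtDNA NZB.

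Kmt2a, the founding member of the family and the target of translocations in leukaemia, overlapped between states in both haplotypes. At rest its lowest, median and highest levels were 65.9, 75.7 and 96.6 CPM in mtDNA B6 cells and 68.7, 101 and 119 CPM in mtDNA NZB cells. After activation they were 60.4, 82.8 and 114 CPM and 56.3, 82.8 and 96.3 CPM. The fold changes pointed in opposite ways, 0.15 ± 0.15 with mtDNA B6 and -0.29 ± 0.16 with mtDNA NZB on the log2 scale, and the fit called neither. With 21 libraries the mtDNA NZB value was -0.45 ± 0.17 and was called. The 3 genes whose log2 levels followed Kmt2a most closely over 23 libraries, of 7746 compared, were Ncoa2 (Pearson r = 0.785), Csnk1g1 (0.724) and Pds5a (0.716).

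Ezh2, the main H3K27 methyltransferase of PRC2 in dividing cells, was the gene that stood furthest above its resting level after activation. Its lowest, median and highest mtDNA B6 levels were 38.7, 46.7 and 55.6 CPM at rest and 131, 166 and 195 CPM after activation. The mtDNA NZB levels were 16.9, 34.3 and 56.6 CPM at rest and 93.6, 172 and 188 CPM after activation. No activated library came down to a resting one in either haplotype. This made a log2 fold change of 1.83 ± 0.17 with mtDNA B6, 3.55-fold higher, and 2.11 ± 0.18 in mtDNA NZB cells, 4.30-fold higher. With 21 libraries these were 1.83 and 2.31.

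Ezh1, which encodes the other catalytic subunit, overlapped between the states in the 24 libraries. Its mtDNA B6 level was 44.1, 62.1 and 75.9 CPM at rest and 49.9, 58.6 and 63.6 CPM after activation. The mtDNA NZB level was 0, 70.0 and 78.4 CPM at rest, the 0 again in the smallest library, and 37.4, 47.6 and 72.6 CPM after activation. Its fold changes were -0.093 ± 0.19 (log2) with mtDNA B6 and -0.29 ± 0.20 with mtDNA NZB. With 21 libraries the mtDNA NZB ranges were apart, 69.8 to 78.4 CPM at rest and 37.4 to 66.4 CPM after activation, and the fold change was -0.59 ± 0.16 and was called, while the mtDNA B6 value stayed at -0.090.

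The balance between both enzymes was followed as the ratio of their UMIs within a library, which needs no scaling between libraries. Capture of the 3′ end may differ between genes, so the ratio is compared between groups and not read against 1. Resting mtDNA B6 libraries had 0.524 to 1.18 (median 0.738) and activated ones 2.26 to 3.91 (median 2.75). Resting mtDNA NZB libraries had 0.373 to 1.41 (median 0.477, n = 5, without the smallest library, which held 1 and 0 UMIs of the genes), and activated ones 1.41 to 5.00 (median 3.73). The mtDNA B6 ranges were apart, and the mtDNA NZB ranges met at resting replicate 6 and activated replicate 3. Resting replicate 6 was also the resting mtDNA NZB library with the highest sum of 7 proliferation genes, 863 CPM against 385 to 599 CPM in the others, and with the highest sum of granulocyte precursor markers.

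**Figure D2:**
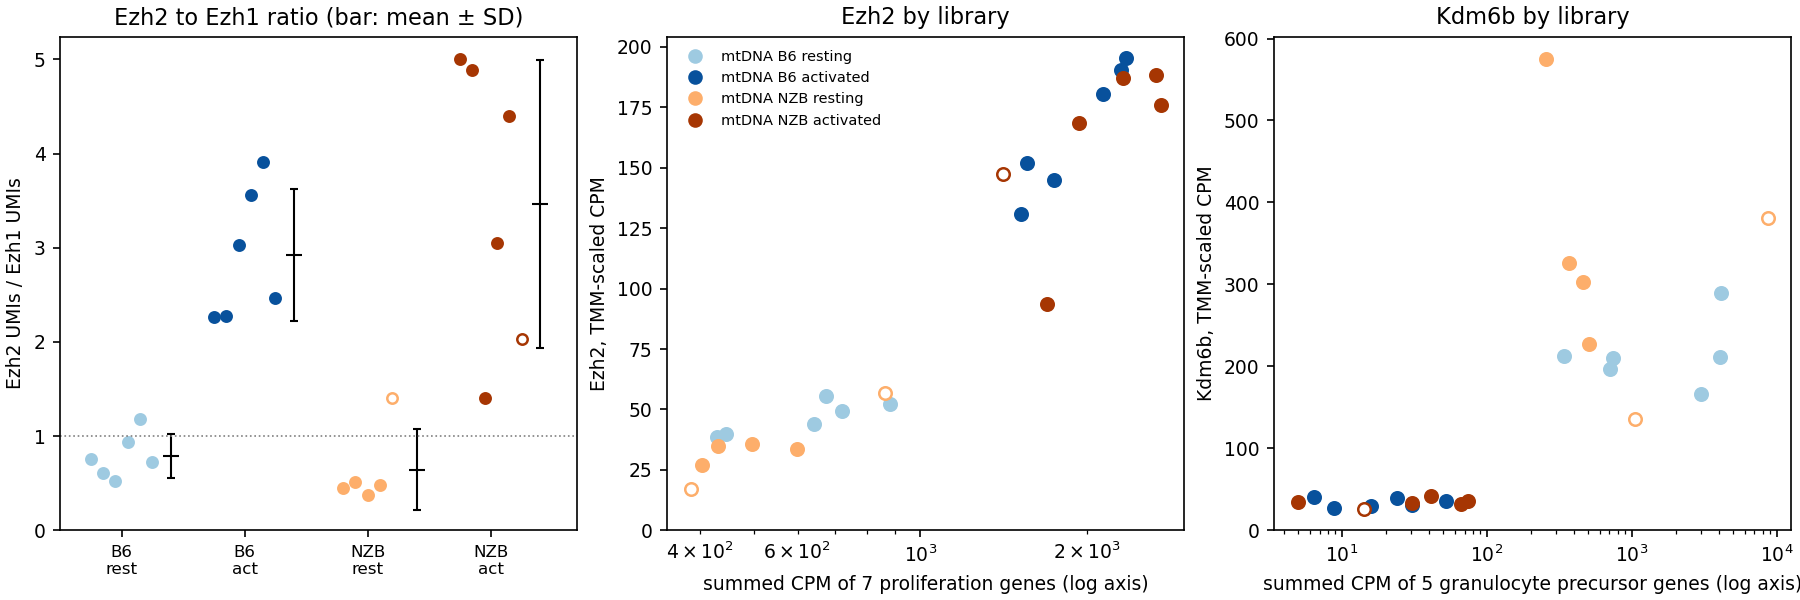
Left, ratio of Ezh2 to Ezh1 UMIs in each library with the mean and SD of each group. Middle, Ezh2 in CPM against the summed CPM of 7 proliferation genes (log axis), and right, Kdm6b in CPM against the summed CPM of 5 granulocyte precursor genes (log axis), with 1 point a library and open points for the libraries left out of the second fit. Activated libraries lie at high Ezh2 and high proliferation sums. The resting library with the highest Kdm6b, 575 CPM, has the lowest granulocyte precursor sum of the resting libraries, 254 CPM. The next highest in Kdm6b, mtDNA NZB resting replicate 6 at 381 CPM, has the highest sum, 8621 CPM. Among resting mtDNA B6 libraries, replicate 6 is highest in both, at 290 CPM and 4128 CPM.

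Ezh2 was high in the same libraries as genes of the cell cycle. All 7 proliferation genes rose in both haplotypes (edgeR quasi-likelihood test, Benjamini-Hochberg adjusted over all genes), among them Top2a, the topoisomerase that untangles chromosomes, by 2.63 ± 0.28 on the log2 scale in mtDNA B6 cells (adjusted p = 3.49e-08) and 3.31 ± 0.30 in mtDNA NZB cells (adjusted p = 2.61e-09). Their sum was 385 to 881 CPM in resting and 1409 to 2713 CPM in activated libraries. The genes with the log2 level most like that of Ezh2 over 23 libraries were Top2a (r = 0.978), Kif20b (0.976) and Spdl1 (0.975). Those most like Ezh1 were Bbs9 (0.882), Calcoco1 (0.870) and Il16 (0.865). These correlations span both states, share library depth and are given without a test.

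Suz12, the subunit that anchors PRC2 to chromatin, was higher after activation by less than Ezh2. With mtDNA B6 its lowest, median and highest levels were 53.0, 78.4 and 85.3 CPM at rest and 86.4, 122 and 164 CPM after activation, with no overlap. With mtDNA NZB they were 33.9, 87.4 and 104 CPM at rest and 90.6, 133 and 147 CPM after activation, and activated replicate 3 fell into the resting range. The fold changes were 0.76 ± 0.16 and 0.51 ± 0.16 on the log2 scale.

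Eed, the subunit that binds the H3K27 mark already in place, had the smallest shift of the 3 genes called higher in mtDNA B6 cells. Its level there was 33.4, 38.9 and 46.4 CPM at rest and 42.4, 59.2 and 66.8 CPM after activation, and only activated replicate 6 fell into the resting range. The resting mtDNA NZB values of 16.9, 41.7 and 90.7 CPM enclosed the activated values of 42.9, 59.7 and 77.6 CPM, the lowest in the smallest library (1 UMI) and the highest in replicate 5. Its log2 fold changes were 0.57 ± 0.19 with mtDNA B6 and 0.15 ± 0.20 with mtDNA NZB, the latter 0.40 without replicate 5.

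Kdm6b, the demethylase that takes the H3K27 mark away, had the largest shift of the 10 genes. At its lowest, median and highest it stood at 166, 211 and 290.0 CPM in resting mtDNA B6 libraries and at 27.3, 33.4 and 41.0 CPM in activated ones. The mtDNA NZB values were 136, 315 and 575 CPM at rest and 25.5, 33.9 and 41.4 CPM after activation. Resting and activated libraries were far apart in both haplotypes, and the activated values of the haplotypes nearly coincided. Activation gave -2.65 ± 0.20 on the log2 scale with mtDNA B6, 6.27-fold lower, and -3.36 ± 0.21 with mtDNA NZB, 10.2-fold lower. The genes most like it were Epc1 (r = 0.985), Per1 (0.982) and Pik3r1 (0.980).

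**Figure D3:**
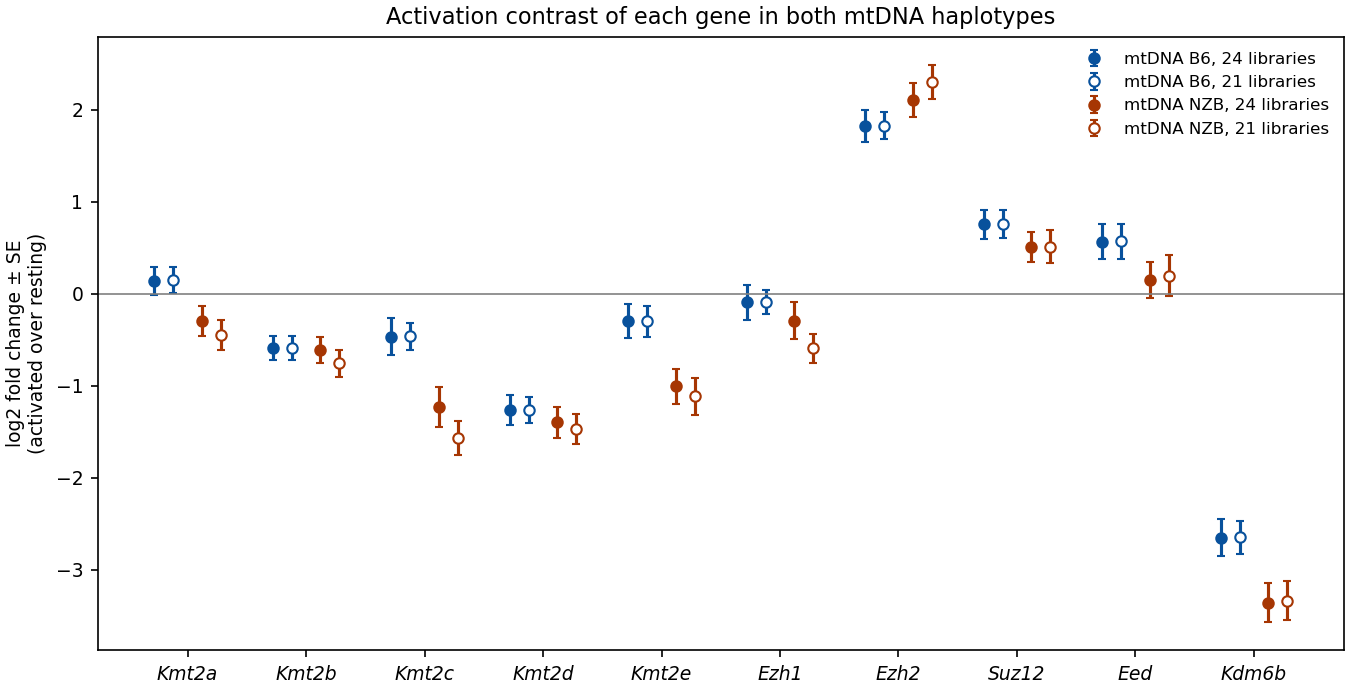
Log2 fold change of activated over resting cells with its standard error for the 10 genes, in mtDNA B6 (blue) and mtDNA NZB cells (brown), from the fit of 24 libraries (filled) and of 21 libraries (open). Ezh2 lies highest in both haplotypes and Kdm6b lowest, at -2.65 and -3.36.

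The haplotypes were then set side by side at rest and after activation. Both contrasts share libraries with the activation contrasts. At rest the fit called 2.76% of all genes (292, and 1 with library set as a term) and none of the 10 genes. The 3 with the largest differences, mtDNA NZB minus mtDNA B6 on the log2 scale, were Kdm6b (0.68 ± 0.19), Kmt2e (0.64 ± 0.19) and Eed (0.44 ± 0.20). Without mtDNA NZB resting replicate 5 they were 0.45, 0.41 and 0.18, and Eed was then below Kmt2a (0.25) and Kmt2c (0.26). The ranges of all 10 overlapped, as did all but 1.14% of genes. In the 21 libraries 2 of the 10 had ranges apart, beside 5.39% of genes, Kmt2c (46.0 to 66.9 CPM in mtDNA NZB and 33.1 to 43.6 CPM in mtDNA B6 cells) and Ezh2 (27.1 to 35.6 and 38.7 to 55.6 CPM). For Kmt2c the overlap came from the smallest library alone. With 21 libraries Kdm6b was called at 0.74 ± 0.18, beside 6.11% of all genes. In that fit all 5 granulocyte precursor markers and all 5 erythroid markers were lower in resting mtDNA NZB cells, with median log2 differences of -2.50 and -3.46, and the part of those cells was not tested.

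After activation the log2 differences of the 10 genes lay between -0.40 (Kmt2c; -0.66 without mtDNA NZB activated replicate 6) and 0.032 (Kmt2b), the fit called none, and 0% of all genes were called with 24 libraries and 0% with 21. The ranges of all 10 overlapped here too, and 0.0568% of genes had ranges apart. At an unadjusted p under 0.05 edgeR counted 327 of the 10566 genes, none of them among the 10, and DESeq2 also called 0 genes after adjustment.

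The activation responses were also subtracted, mtDNA NZB minus mtDNA B6. With 24 libraries this difference was -0.76 ± 0.30 for Kmt2c, -0.71 ± 0.28 for Kdm6b and -0.71 ± 0.27 for Kmt2e, the fit called none of the 10 genes, and 0% of all genes were called (edgeR, with 1512 genes at an unadjusted p under 0.05; DESeq2 called 1). With 21 libraries the Kmt2c value was -1.11 ± 0.23 and was called, beside 1.04% of all genes. Library sets by reads per UMI were spread unevenly over the groups, and with the set added to the fit of 21 libraries the value for Kmt2c was -1.23, no longer called.

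Beyond the 10 genes, 70 genes of the same pathways were listed, and 67 of them passed the filter (Paxip1, Pagr1a and Cdkn2b did not). The lists were also chosen with earlier results of these data known. Their shares and adjusted p-values are therefore a description and no independent support. On activation 22 rose and 13 fell with mtDNA B6, while 17 rose and 20 fell with mtDNA NZB. The 22 make 32.8% and the 13 make 19.4% of those tested, beside 22.4% and 24.5% of all genes. The mtDNA NZB shares were 25.4% and 29.9%, beside 25.2% and 28.4%. Of the risers 16 were shared by both haplotypes (72.7% of those in mtDNA B6 and 94.1% of those in mtDNA NZB cells), and of the fallers 10 (76.9% and 50%). Whether a gene called in 1 haplotype alone differed between them is a question for the difference of responses. With 24 libraries none of the 67 and 0% of all genes were called in it, so it cannot decide this. With 21 libraries no listed gene was called either, beside 1.04% of all genes. With library set as a term 7 genes fell in mtDNA B6 cells in place of 13. All adjusted p-values below are from edgeR over all genes tested.

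**Figure D4:**
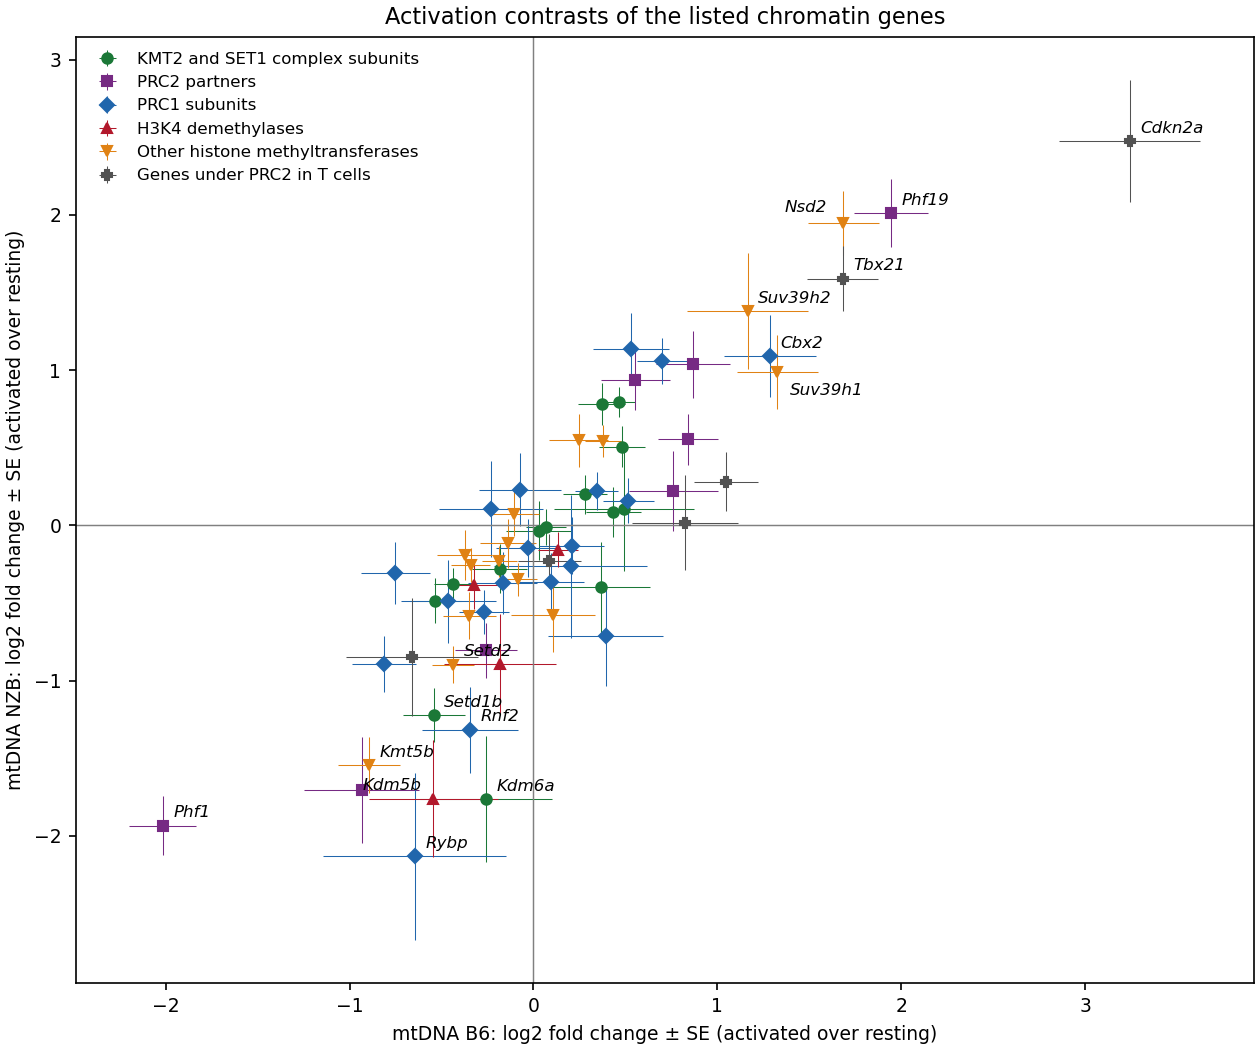
Log2 fold change on activation of 66 of the 67 listed genes with standard errors, mtDNA B6 cells on the horizontal and mtDNA NZB cells on the vertical axis, with a symbol for each list. Phf19 and Phf1, both PRC2 partners, lie at opposite ends, near 1.94 and -2.01 in mtDNA B6 cells.

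PRC2 partners were the list with the highest share of genes called, from which nothing is read, since the lists were chosen with earlier results known. Of 8, 5 rose and 2 fell with mtDNA B6, beside 22.4% and 24.5% of all genes. With mtDNA NZB 4 rose and 3 fell, beside 25.2% and 28.4%. The median log2 change was 0.66 and 0.39, beside -0.026 and -0.058 over all genes. Phf19 and Phf1 encode alternative Polycomb-like subunits that bring PRC2 to its targets. Phf19 ran from 4.31 to 9.75 CPM in resting and from 17.6 to 33.5 CPM in activated mtDNA B6 libraries, and rose by 1.94 ± 0.20 (adjusted p = 2.75e-08). With mtDNA NZB the rise was 2.01 ± 0.22 (adjusted p = 4.59e-08). Phf1 ran from 89.7 to 146 CPM in resting and from 22.5 to 37.0 CPM in activated mtDNA B6 libraries, and fell by 2.01 ± 0.18 (adjusted p = 2.63e-09). With mtDNA NZB it fell by 1.94 ± 0.19 (adjusted p = 8.32e-09). Both differed between resting and activated cells, as did the Ezh2 to Ezh1 ratio, and they were not compared with it library by library. Rbbp7 and Rbbp4, the histone chaperones of the complex, rose in both haplotypes, Rbbp7 by 0.87 ± 0.20 and 1.04 ± 0.21 and Rbbp4 by 0.55 ± 0.19 and 0.94 ± 0.20. Aebp2, an accessory zinc finger subunit, rose by 0.84 ± 0.16 and 0.55 ± 0.17. Mtf2, another Polycomb-like subunit, rose in mtDNA B6 cells alone by the test (0.76 ± 0.24, and 0.22 ± 0.26 in mtDNA NZB cells). Jarid2, the subunit that guides PRC2, fell in mtDNA NZB cells by 0.81 ± 0.18 and stood at -0.26 ± 0.17 in mtDNA B6 cells. Lcor, at under 5 CPM in all groups, fell in both.

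PRC1 subunits, which bind the H3K27 mark and ubiquitinate histone H2A, held genes called in both directions. Of 20, 5 rose and 3 fell with mtDNA B6, beside 22.4% and 24.5% of all genes. With mtDNA NZB 3 rose and 5 fell, beside 25.2% and 28.4%. The medians were -0.051 and -0.29. The chromobox genes, whose products read the mark, parted. Cbx2 rose from 3.76 to 9.78 CPM at rest to 11.97 to 20.7 CPM in mtDNA B6 cells, by 1.29 ± 0.25 (adjusted p = 0.000146), and by 1.09 ± 0.26 in mtDNA NZB cells (adjusted p = 0.00115). Cbx6 rose by 0.70 ± 0.14 and 1.06 ± 0.15. Cbx7 fell by 0.81 ± 0.17 and 0.90 ± 0.18. Pcgf2, a ring finger partner of the ligase, rose by 0.53 ± 0.20 and 1.14 ± 0.23. Phc2 and Pcgf5 rose in mtDNA B6 cells alone by the test. Of the ligases themselves, Ring1 fell by 0.75 ± 0.19 in mtDNA B6 cells and Rnf2 by 1.32 ± 0.28 in mtDNA NZB cells, while Bcor and Rybp fell in mtDNA NZB cells, Rybp with a mean of 6.62 CPM at rest and an SE of 0.54.

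Subunits of the KMT2 or SET1 complexes, shared or not, were 1 list that held genes called in both directions. Of 14 tested, 4 rose and 3 fell with mtDNA B6, beside 22.4% and 24.5% of all genes. With mtDNA NZB 3 rose and 4 fell, beside 25.2% and 28.4%. The medians were 0.17 and -0.023. Among those that rose in both haplotypes, Ash2l rose by 0.46 ± 0.091 (adjusted p = 0.000161) and 0.80 ± 0.098 (adjusted p = 2.61e-07), Dpy30 by 0.37 ± 0.13 and 0.78 ± 0.14, and Hcfc1 by 0.48 ± 0.12 and 0.51 ± 0.13. Rbbp5 rose in mtDNA B6 cells by 0.43 ± 0.15. The genes that fell in both haplotypes were the enzymes Setd1a (-0.53 ± 0.14 and -0.48 ± 0.14) and Setd1b (-0.54 ± 0.17 and -1.22 ± 0.17), which place the same mark as the KMT2 family, and Cxxc1, which takes them to CpG islands (-0.44 ± 0.10 and -0.38 ± 0.11). Kdm6a, a partner of Kmt2c and Kmt2d and a relative of Kdm6b, fell in mtDNA NZB cells by 1.76 ± 0.41 (adjusted p = 0.00074). It was low throughout, with means of 12.3 ± 11.7 CPM (SD, n = 6) in resting and 2.53 ± 1.28 CPM in activated mtDNA NZB cells, and its value in mtDNA B6 cells was -0.26 ± 0.36.

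The 4 H3K4 demethylases gave 0 calls in mtDNA B6 cells (edgeR, 1 at an unadjusted p under 0.05). With mtDNA NZB 3 fell, Kdm5b by 1.76 ± 0.38 (adjusted p = 0.000343), Kdm5a by 0.89 ± 0.32 (adjusted p = 0.021) and Kdm1a by 0.39 ± 0.15 (adjusted p = 0.0337), and with 21 libraries the call for Kdm1a was lost. The medians of the list were -0.25 and -0.64. Of all genes, 24.5% fell with mtDNA B6 and 28.4% with mtDNA NZB.

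Other histone methyltransferases held genes called in both directions. Of 15, 4 rose and 5 fell with mtDNA B6, beside 22.4% and 24.5% of all genes. With mtDNA NZB 5 rose and 5 fell, beside 25.2% and 28.4%. The medians were -0.11 and -0.19. Nsd2, which methylates lysine 36 of histone H3, ran from 33.7 to 61.4 CPM in resting and from 107 to 199 CPM in activated mtDNA B6 libraries. It rose by 1.68 ± 0.19 (adjusted p = 1.26e-07) and by 1.95 ± 0.21 in mtDNA NZB cells (adjusted p = 2.82e-08). Of the enzymes for lysine 9 of histone H3, Suv39h1 rose by 1.33 ± 0.22 and 0.99 ± 0.24 Suv39h2 by 1.16 ± 0.33 and 1.38 ± 0.37 and Ehmt2 by 0.38 ± 0.098 and 0.54 ± 0.10. Ehmt1, the partner of Ehmt2, fell by 0.34 ± 0.11 in mtDNA B6 cells and stood at -0.26 ± 0.11 in mtDNA NZB cells, and Setdb1 was not called (-0.11 ± 0.14 and 0.076 ± 0.15). Kmt5b, which methylates lysine 20 of histone H4, fell by 0.90 ± 0.17 (adjusted p = 0.000105) and 1.54 ± 0.18 (adjusted p = 1.37e-07). Of the other lysine 36 enzymes, Setd2 fell by 0.44 ± 0.11 and 0.90 ± 0.12, Ash1l fell in both haplotypes, Nsd3 fell in mtDNA NZB cells, and Nsd1 was not called (-0.14 ± 0.15 and -0.12 ± 0.16). Kmt5c fell in mtDNA B6 cells and Dot1l in mtDNA NZB cells, where Kmt5a rose.

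Genes known to be held by PRC2 in T cells were a list of 7, of which 6 were tested. With mtDNA B6 4 rose, beside 22.4% of all genes, and with mtDNA NZB 2, beside 25.2%. None fell, beside 24.5% and 28.4% of all genes. The medians were 0.94 and 0.15. Tbx21, the T-bet factor of Th1 cells, ran from 21.4 to 31.4 CPM in resting and from 47.9 to 101 CPM in activated mtDNA B6 libraries, and rose by 1.68 ± 0.19 (adjusted p = 1.39e-07) and 1.59 ± 0.21 (adjusted p = 6.36e-07). Cdkn2a, the cell cycle inhibitor locus, rose by 3.24 ± 0.38 and 2.48 ± 0.39 from levels of 0 to 1.67 CPM at rest. Eomes rose in mtDNA B6 cells by 1.05 ± 0.18 and stood at 0.28 ± 0.19 in mtDNA NZB cells, and Prdm1 rose in mtDNA B6 cells by 0.83 ± 0.29. Cdkn2a and Tbx21 were higher after activation, as was Ezh2, and were not compared with it library by library. Ifng stood at -0.66 ± 0.36 and -0.85 ± 0.38 and fell in mtDNA NZB cells in the fit of 21 libraries (-1.12 ± 0.43, adjusted p = 0.0327).

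Between haplotypes 3 listed genes were called at rest, all higher in mtDNA NZB cells, which is 4.48% of 67 beside 2.76% of all genes. Setd2 was higher by 0.45 ± 0.12 (adjusted p = 0.0395), with 65.1 to 84.4 CPM in mtDNA B6 and 81.7 to 145 CPM in mtDNA NZB cells. Setd1b was higher by 0.63 ± 0.17 (adjusted p = 0.046), with 146 to 193 CPM and 180 to 411 CPM. Kdm2b, which brings PRC1 to CpG islands, was higher by 1.18 ± 0.32 (adjusted p = 0.046), with 7.61 to 12.1 CPM and 0 to 44.5 CPM. The groups overlapped for each of the 3, and with 21 libraries Setd2 alone was called (0.43 ± 0.13, adjusted p = 0.0468). DESeq2, total count scaling and the fit with library set each called 0 of them. After activation edgeR called 0 of the 67 (3 at an unadjusted p under 0.05) and DESeq2 called 0.

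In the annotation (GRCm39) these genes differ in what the 3′ counts could take up. Kmt2a (chr9:44714652-44792621), Kmt2c (chr5:25476796-25703810) and Kmt2d (chr15:98729550-98769085) have canonical transcripts of 16488, 16845 and 19826 bases in 36, 59 and 55 exons, the longest of the 10, and Eed (chr7:89603862-89630217) the shortest, 2093 bases in 12 exons. Ezh2 lies at chr6:47507073-47572331, Suz12 at chr11:79883891-79925421, Ezh1 at chr11:101081934-101117315 and Kdm6b at chr11:69289334-69304501. Kmt2b lies at chr7:30268283-30288414 and Kmt2e at chr5:23639418-23709233. A gene on the opposite strand overlaps the last 1000 bases of 5 of them, Cul1 for Ezh2, Cntnap1 for Ezh1, Crlf3 for Suz12, Srpk2 for Kmt2e and Gm48702 for Kmt2a. Whether counting used strand is not given in the sources used here, so for these 5 reads of the partner cannot be told apart. Kdm6b and Kmt2d have no such partner.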

How the data were processed

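RNA of 24 Tconv CD4+ libraries was measured by bulk MARS-seq, in which 3′ ends carry UMIs. The authors deposited UMI-corrected counts per gene, made with cutadapt, STAR and HTSeq (versions not given in the sources used here) against GRCm39, and a second, larger count table, whose making is not given in the sources used here and which served as an alternative only; 1 column of it matched no sample here and was not used. Samples were grouped by the labels' genotype and treatment.

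The deposited counts were fitted with edgeR 4.0.16 (R 4.3.3; quasi-likelihood F-test, TMM scaling, filterByExpr, 24 libraries, 10566 genes, 4 group means), with Benjamini-Hochberg adjustment over all genes and calls at an adjusted p of at most 0.05. SE is the size of the log2 fold change over the square root of F. A second fit held the 21 libraries from which the mean counts listed with the study could be rebuilt within 0.475%. Alternatives were DESeq2 1.42.0, other scaling and filters, library sets by reads per UMI, replicate blocks and leaving out each library. The script was tested on simulated data.

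The 10 genes and all lists were chosen with earlier results of these data known. Named were all 10 genes and, per list and haplotype, the 3 largest rises and falls among called genes with a mean of at least 5 CPM in a group, listed genes called between haplotypes, and the 3 genes most like Ezh2, Ezh1, Kdm6b and Kmt2a (mean of at least 10 CPM). Other listed genes, such as Lcor, Mtf2, Prdm1, Ifng, Phc2, Pcgf5, Bcor, Ehmt1, Ehmt2, Kmt5a, Setdb1, Dot1l, Nsd1 and Nsd3, were named after their values were seen. 1 result that the rule would name is not reported here. Depth limits the smallest library. Floors cover counting error only, while the SE also takes in the spread between libraries.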

Additional observations from a re-analysis of the deposited data

Results flagged for a closer look

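Of 44 sets of 6 libraries (5 for the ratio in resting mtDNA NZB cells), made of the 10 genes and the Ezh2 to Ezh1 ratio in 4 groups, 4 held a library whose gap to its neighbour was large against the range of its group by Dixon's test, and chance gives about 1 in 20. Kdm6b in resting mtDNA B6 cells reached 290.0 CPM in replicate 6, with the next library at 212 CPM. Suz12 in resting mtDNA B6 cells was lowest in replicate 3 at 53.0 CPM, with the next at 76.1 CPM. Kmt2c in resting mtDNA NZB cells was 0 CPM in replicate 2, the library of 51409 UMIs, with the next at 45.0 CPM. The Ezh2 to Ezh1 ratio in resting mtDNA NZB cells was 1.41 in replicate 6, with the next at 0.51. No listed gene was called in the difference of responses between the haplotypes, and with 24 libraries 0% of all genes were.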

How the results depend on the processing

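Under 1800 alternatives for the 10 genes, 1793 values moved by less than 1 SD between libraries of a group, and 7 by more. None of the called values turned its sign. Most alternatives left out 1 library, which can hardly move a group mean by that much, so the 1793 say little about robustness. All 7 came from fits of 21 libraries with library set or the label-number replicate block as a term, added after the data were seen. Counts of listed genes moved as follows. A log2 fold cut-off of 1 left 8 of 22 higher and 2 of 13 lower in mtDNA B6 cells, 9 of 17 higher and 9 of 20 lower in mtDNA NZB cells, and 1 of 3 at rest. Library set as a term left 7 lower in mtDNA B6 cells, and 6 in 21 libraries (an alternative added after the data were seen). The 3 calls at rest became 1 without a filter on low counts, with median-of-ratios factors and with 21 libraries, and 0 with total count scaling, DESeq2, the second table, only the groups compared, library set (24 or 21 libraries) or the title-number replicate block. The cause was not tested. Leaving out 1 library gave 20 to 23 and 10 to 15 in mtDNA B6 cells, 17 to 18 and 17 to 22 in mtDNA NZB cells, and 0 to 4 at rest. That count was 0 or 1 without mtDNA B6 activated replicates 1 to 5, mtDNA B6 resting replicates 1, 3, 4, 5 and 6, mtDNA NZB activated replicates 2 and 4, or mtDNA NZB resting replicates 5 and 6. After activation, and for the difference of responses, the count was 0 throughout. Total count scaling moved the median log2 change of all genes from -0.026 to 0.099 in mtDNA B6 cells and from -0.058 to 0.062 in mtDNA NZB cells, and there Ezh1 in mtDNA B6 cells, not called, stood at 0.041.

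Whether numbers in the labels mark libraries from the same animal is not given in the sources used here. Same-numbered libraries deviated together with r from -0.0838 to 0.304 in 5 mtDNA B6 pairs, where 3 were over 0.1 and correlated best with their own number, and from -0.2 to -0.0147 in 4 mtDNA NZB pairs, so the libraries were not treated as pairs (title numbers gave -0.226 to 0.304 in 12 pairs). With the label-number replicate block 19 genes were higher and 11 lower in mtDNA B6 cells and 17 higher and 16 lower in mtDNA NZB cells. The smallest library limits Kmt2c and Ezh1.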
